A study of Mus musculus with 23 samples.

Results

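Adult mouse quadriceps muscle was set against primary myoblasts at passage 0, muscle precursor cells that were in culture before any passage. These 6 samples, 3 of quadriceps and 3 of passage 0 myoblasts, were picked by their labels out of 23 in the series, which also holds later myoblast cultures, myotubes, embryonic stem cells and a NOD muscle sample that was left out. Quadriceps 1 carried the strain label C57BL/6J, quadriceps 2 and 3 the label 129Sv/C57BL/6J, and all were labelled male with no age given. Passage 0 myoblasts 1, 2 and 3 were labelled male and C57BL/6J, and grew on collagen in Ham's F-10 medium with serum and basic fibroblast growth factor. The labels name no transgene or drug for either group. The labels do not say whether the 3 samples of a group came from separate animals or cultures, so a p-value here speaks only of spread among samples. That spread was estimated per probe over all 21 samples of 7 groups in the fit, and not over the 6 samples alone. It includes a dim array, proliferating myoblasts 1, and counts without that array are given in the closing section.

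Skeletal muscle is made of fibres, long cells with many nuclei that arise when myoblasts leave the cell cycle and fuse. Fusion is followed by a change of contractile proteins, in which embryonic and cardiac forms give way to adult forms that set the speed of contraction, and by the build-up of glycogen use, mitochondria and calcium release machinery. Whole muscle also holds vessels, connective tissue, nerve, fat and blood, which a myoblast culture largely lacks.

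Levels are log2 signals of a probe relative to the 75th percentile of its array, so 0 is the level of a fairly bright probe. A gene is given by its brightest probe, and levels of different probes are not set against each other. A gene was called higher or lower in quadriceps at a limma adjusted p under 0.05 and at least a 2-fold difference. A gene seen above background in one group and in 0 of 3 samples of the other has only a bound, written as "at least". On the 6 arrays 43.6% to 58.6% of spots were above background, and none was saturated. The 75th percentile signal was 348, 343 and 261 in quadriceps 1, 2 and 3, against 673, 699 and 765 in myoblasts 1, 2 and 3. The lowest level above background was -3.89, -3.67 and -3.09 in quadriceps, against -4.77, -4.79 and -4.98 in myoblasts. Bounds for genes lower in quadriceps therefore rest on a higher floor than bounds for genes higher. Correlations between arrays were 0.966 to 0.978 within quadriceps, 0.973 to 0.981 within myoblasts and 0.755 to 0.786 across the groups. Each of the 3 slides held 1 quadriceps and 1 myoblast sample.

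Of 20959 genes tested, 9589 (45.8%) were called, 4937 higher in quadriceps (23.6%) and 4652 lower (22.2%), with a median log2 difference of 0.16 over all genes tested. Shares of a gene list are read against these percentages below.

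Sex-linked genes go against the label male in 3 of the 6 samples. Xist, the RNA of the inactive X chromosome, read -6.02, -5.78 and 0.09 in quadriceps 1, 2 and 3, against 1.82, -2.71 and 1.41 in myoblasts 1, 2 and 3. Ddx3y, on the Y chromosome, read 2.55, 2.76 and -5.04 in quadriceps, against -6.86, 1.68 and -7.05 in myoblasts, and Eif2s3y read 2.00, 2.56 and -5.24 against -7.03, 1.83 and -7.20. Quadriceps 3 and myoblasts 1 and 3 therefore have Xist and lack the Y-linked signals. Myoblasts 2, which has the Y-linked signals, was also above background for Xist, at a lower level. These genes were examined after the data had been seen. With those 3 samples left out, 3063 genes were higher and 3255 lower, and 2727 of the genes higher and 3099 of the genes lower in all 6 samples were called again. Counts that shrank by more than 1.5 times without the 3 mismatched samples are given beside each list. That fit keeps a lone myoblast sample, myoblasts 2, which is assumed to vary like the samples of the other groups.

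Genes of adult fast fibres were higher in quadriceps. Myh4, the myosin heavy chain of the fastest fibres (probe at chr11:67073834-67073893, mm9), read 10.25, 10.43 and 10.71 in quadriceps 1, 2 and 3, against -3.68, -2.43 and -2.48 in myoblasts 1, 2 and 3. All quadriceps samples sat far above all myoblast samples, a 10297-fold difference and the largest among genes above background in all 6 samples (13.33 ± 0.72 log2, SE, adjusted p = 3.2e-10, n = 3 each). In RNA from whole tissue, more cells of a type and more RNA per cell cannot be told apart. Mybpc2, the fast form of myosin-binding protein C, read 8.57, 9.61 and 9.93 in quadriceps and was above background in no myoblast sample, which puts it at least 19030-fold higher. Pvalb, the calcium buffer parvalbumin of fast fibres, read 10.53, 10.85 and 11.28 in quadriceps, against -1.42, -0.82 and -1.26 in myoblasts, a 4254-fold difference (adjusted p = 1.3e-08).

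The promoters of a fast fibre gene and a skeletal actin gene are shown because members of their list moved together, and 2 promoters of cell cycle genes are shown beside them because that list moved the opposite way. Each runs 300 bases, from 250 before to 50 after the RefSeq start, 5′ to 3′ on the gene's strand, build GRCm38.p6. Capitals mark motifs found on either strand. In the muscle promoters these are CAGCTG, an E-box form bound by MyoD family factors, and TATAAA, the letters of a TATA box. A match is marked at any distance from the start, so a marked TATAAA is not by itself the TATA box of the gene. In the cell cycle promoters they are CCAAT, the box bound by NF-Y, and TTTGAA, the core of the element called CHR. Myh4 lies at chr11:67237562-67237861 (+), Acta1 at chr8:123894726-123895025 (-), Mki67 at chr7:135716330-135716629 (-) and Ccnb1 at chr13:100786437-100786736 (-).
Myh4: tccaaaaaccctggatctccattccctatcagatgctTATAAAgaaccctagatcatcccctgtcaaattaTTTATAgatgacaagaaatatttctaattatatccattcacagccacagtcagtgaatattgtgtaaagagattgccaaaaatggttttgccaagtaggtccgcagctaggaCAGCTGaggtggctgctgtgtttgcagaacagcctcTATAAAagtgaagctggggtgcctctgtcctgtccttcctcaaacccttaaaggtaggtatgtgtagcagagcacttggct
Acta1: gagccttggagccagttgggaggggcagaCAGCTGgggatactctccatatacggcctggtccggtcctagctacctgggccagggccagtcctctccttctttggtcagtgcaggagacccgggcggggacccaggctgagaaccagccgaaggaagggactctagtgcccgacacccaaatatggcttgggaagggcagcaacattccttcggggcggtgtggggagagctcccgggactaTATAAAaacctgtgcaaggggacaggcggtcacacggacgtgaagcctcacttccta
Mki67: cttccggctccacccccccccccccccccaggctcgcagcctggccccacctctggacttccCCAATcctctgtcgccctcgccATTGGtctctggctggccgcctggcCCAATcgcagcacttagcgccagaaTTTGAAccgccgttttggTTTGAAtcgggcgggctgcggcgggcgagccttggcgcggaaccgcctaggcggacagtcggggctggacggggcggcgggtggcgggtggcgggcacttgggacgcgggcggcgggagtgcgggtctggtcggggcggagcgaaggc
Ccnb1: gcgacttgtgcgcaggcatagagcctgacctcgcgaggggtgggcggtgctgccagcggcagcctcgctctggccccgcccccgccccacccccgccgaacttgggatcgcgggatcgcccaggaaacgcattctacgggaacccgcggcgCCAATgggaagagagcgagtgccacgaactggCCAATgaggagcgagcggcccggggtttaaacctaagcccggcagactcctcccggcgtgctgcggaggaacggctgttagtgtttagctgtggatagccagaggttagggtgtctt
The Myh4 window holds 1 CAGCTG and 3 TATAAA, and the Acta1 window 1 of each. The Mki67 window holds 3 CCAAT and 2 TTTGAA, and the Ccnb1 window 2 CCAAT and no TTTGAA. Windows of Mybpc2, Ckm, Rrm2 and Birc5 were searched in the same way and are not printed. Mybpc2 held none of the motifs, and Ckm held 1 CAGCTG and no TATAAA. Rrm2 held 1 CCAAT, 1 CAGCTG and no TTTGAA, and Birc5 held 1 CAGCTG and neither CCAAT nor TTTGAA.

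Over the adult fast fibre genes with a promoter in the RefSeq table, CAGCTG was in 9 of 15 windows, against 15.6% of the 11360 tested genes with a promoter and 16.1% of all 27025 promoters in the table. TATAAA was in 5 of the 15 (33.3%), against 8.24% and 14.2%. In the Z disc and scaffold list, which was also mostly higher, CAGCTG was in 7 of 26 windows (26.9%) and TATAAA in 3 of 26 (11.5%). CCAAT was in 27 of 38 mitosis promoters (71.1%) and 23 of 34 replication promoters (67.6%), against 38.2% of tested genes and 37.9% of all promoters. TTTGAA was in 27 of 38 mitosis promoters (71.1%), 5 of 34 replication promoters (14.7%) and 0 of 15 fast fibre promoters, against 12.1% of tested genes and 18.1% of all. Over all genes called, the shares were close to the background: CAGCTG was in 17.4% of promoters of genes higher in quadriceps, and CCAAT in 40.5% of those lower. A match of letters is a description of the window and not of binding.

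All 20 adult fast fibre genes were called higher in quadriceps, with a median log2 difference of 5.44. Myh2, the myosin of fast oxidative fibres, read 10.01, 6.98 and 8.23 in quadriceps and was above background in 1 of 3 myoblast samples, at -5.61, -4.68 and -3.62. Myoz1, a Z disc protein of fast fibres, was 3253-fold higher, Ckm (muscle creatine kinase) 847-fold and Casq1 (the calcium store of the fast sarcoplasmic reticulum) 250-fold. At the other end of the list, several genes were bright in myoblasts as well. Acta1, skeletal alpha actin, read 10.80, 11.04 and 11.28 in quadriceps, against 6.60, 7.94 and 7.55 in myoblasts, a 12.8-fold difference. Tpm1, which covers actin and gates contraction, was 7.75-fold higher by its brightest probe but differed by 0.04 as the mean of its probes (adjusted p = 0.89), and Myl1, a light chain used in embryonic and adult fast muscle, 8.05-fold.

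**Figure D1:**
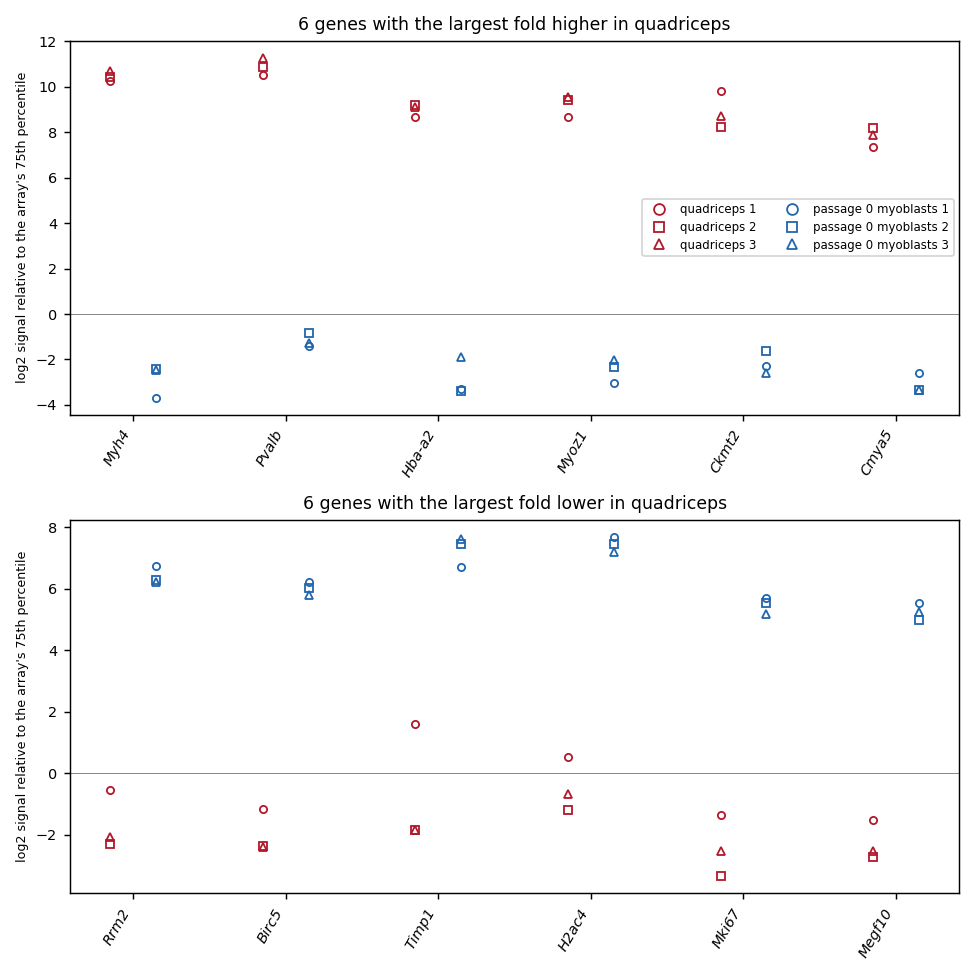
Log2 signal relative to the 75th percentile of the array in each of the 3 quadriceps samples (red, left) and the 3 passage 0 myoblast samples (blue, right) for the 6 genes with the largest fold higher (top) and the 6 with the largest fold lower (bottom) among genes above background in all 6 samples. The groups lie apart for every gene drawn, from 10297-fold higher for Myh4 to 268-fold lower for Rrm2.

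Other genes with the largest folds were Hba-a2 (3723-fold), a haemoglobin chain of red cells, Ckmt2 (2190-fold), the mitochondrial creatine kinase of muscle, Cmya5 (1897-fold), a costamere and Z disc protein, Tmod4 (1433-fold), which caps the pointed end of skeletal actin, and Phkg1 (1021-fold), the catalytic subunit of muscle phosphorylase kinase. Prr33, Stxbp4, Synm and Myadml2 completed the 12 genes highest in quadriceps, at 1492-, 1161-, 998- and 876-fold. Stxbp4 rests on its brightest probe, since another probe of the gene gave 1.45 on the log2 scale. Genes above background in no myoblast sample had bounds of the same order. Rpl3l, the striated muscle form of ribosomal protein L3, was at least 4268-fold higher, Eef1a2 (the muscle and neuron form of elongation factor 1 alpha) at least 1799-fold, Asb11 at least 1551-fold, Hbb-bt at least 1543-fold and Dusp26 at least 1412-fold.

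Developmental sarcomere genes went the other way in most cases, with 10 of 15 lower and 2 higher (median -4.41). Myh3, the embryonic myosin heavy chain, read 0.64, -4.05 and -3.41 in quadriceps, above background in 1 of 3, against 7.12, 7.67 and 7.5 in myoblasts. The difference was 833-fold (-9.70 ± 0.76, adjusted p = 1.3e-08), and another Myh3 probe gave -9.78. Tnnt2, cardiac troponin T, fell by 7.04, Myl4, the atrial and embryonic light chain, by 5.17 and Ankrd1, a stretch-sensitive titin-binding protein, by 5.04 on the log2 scale. Myh8, the perinatal myosin, was one of 2 members higher in quadriceps. It read 10.85, 10.97 and 11.29 in quadriceps, against 4.93, 6.34 and 6.27 in myoblasts, a 36.5-fold difference, and another probe gave 7.16. Myosin heavy chains are near-identical over long stretches, and how much of this signal came from neighbouring myosin genes was not tested. Actc1, cardiac actin, varied within muscle, at 8.47, 4.94 and 8.52 in quadriceps against 8.17, 9.23 and 8.74 in myoblasts, and did not pass the test (-1.41, adjusted p = 0.14).

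Slow fibre genes varied widely between the quadriceps samples. Of 16 tested, 6 were higher in quadriceps and 5 lower, with a median of 0.38. Myh7, the slow myosin heavy chain, read 8.92, 6.10 and -3.09 in quadriceps 1, 2 and 3, against 2.49, 5.12 and 4.81 in myoblasts 1, 2 and 3. Quadriceps 3 was not above background, quadriceps 1 stood above all myoblast samples, and the difference of the means was -0.16 ± 1.85 (SE, adjusted p = 0.95), a sign that normexp background correction turned (0.24). Tnnt1, slow troponin T, read 8.50, 5.90 and -0.22 in quadriceps against 8.24, 8.80 and 8.37 in myoblasts. Tnnc1 read 5.38, 2.28 and -4.47 against 4.48, 6.16 and 5.77, and Tnni1 read 5.73, 2.40 and -2.36 against 5.37, 7.19 and 6.90. These 3 slow troponins were called lower, but quadriceps 1 lay within the myoblast range for each of them. A fit of the 6 samples alone ended the calls of Tnnt1 (adjusted p = 0.12), Tnnc1 (0.11) and Tnni1 (0.057), and left 2 slow genes lower. The call of Tnnt1 was also lost without quadriceps 3 (0.13) or myoblasts 2 (0.066), and that of Tnnc1 without myoblasts 2 (0.067) or myoblasts 3 (0.053).

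All 16 slow fibre genes were highest in quadriceps 1, the C57BL/6J sample, and lowest in quadriceps 3 for 10 and in quadriceps 2 for 6. Their median range between the highest and lowest quadriceps sample was 4.46 log2 units, and 12 of 16 ranged over more than 3. The fast fibre genes had a median range of 0.75, and 1 of 20, Myh2 at 3.03, ranged over more than 3. Over 12405 known genes above background in all quadriceps samples the median range was 0.58, and 96 genes (0.774%) exceeded 3. With 1 sample of the C57BL/6J strain, strain and sample cannot be told apart. The calls move with these samples. Without quadriceps 3, Myh7 was higher in quadriceps (3.37, adjusted p = 0.0057), Tnnc1 lost its call (adjusted p = 0.12) and 8 slow genes were higher and 3 lower. Without quadriceps 1, 6 were higher and 7 lower, and with quadriceps 1 alone 10 were higher and 2 lower. Without myoblasts 2, 6 were higher and 3 lower. A fit with quadriceps 1 alone has 1 sample in that group and assumes that it varies like the samples of the other groups, here and wherever counts against quadriceps 1 alone are given.

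**Figure D2:**
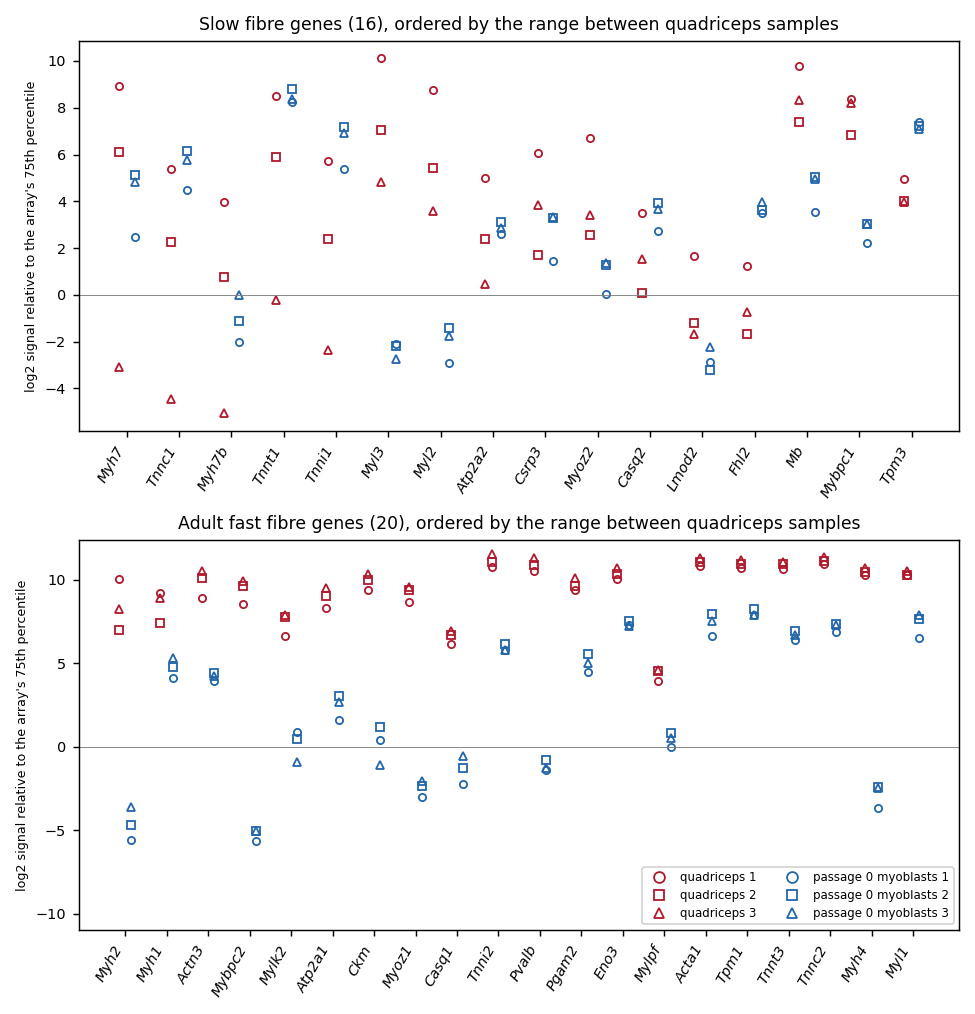
Log2 signal relative to the 75th percentile of the array for 16 slow fibre genes (top) and 20 adult fast fibre genes (bottom), ordered by the range between quadriceps samples, with quadriceps 1 to 3 in red (left) and passage 0 myoblasts 1 to 3 in blue (right). Quadriceps 1 is the highest quadriceps point for every slow gene, and Myh7 spans 8.92 to -3.09, whereas quadriceps points of the fast genes mostly cluster.

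The slow genes that were called higher had levels above the myoblasts in every quadriceps sample. Myl3, the slow and ventricular essential light chain, read 10.11, 7.05 and 4.84 in quadriceps, against -2.10, -2.19 and -2.76 in myoblasts, an 820-fold difference. Myl2, the regulatory light chain of slow and heart muscle, was 250-fold higher, Mybpc1 (slow myosin-binding protein C) 32.6-fold, and Mb (myoglobin, the oxygen store of muscle) 16-fold. Tpm3, slow tropomyosin, was lower in all quadriceps samples, at 4.96, 4.03 and 3.95 against 7.38, 7.21 and 7.08 (7.52-fold lower), but the mean of its probes gave 0.83 (adjusted p = 0.43). Fhl2, a LIM protein of slow and heart muscle, was 17-fold lower.

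A few genes outside the list were looked up after their values had been seen. Bdh1, an enzyme of ketone body use, read 5.48, 1.23 and 1.40 in quadriceps 1, 2 and 3. Ankrd2, a stretch-responsive titin-binding protein, read 7.8, 3.29 and 4.56. Both were highest in quadriceps 1 and lowest in quadriceps 2. The 8 tested Mup genes, which code for major urinary proteins, were all called higher in quadriceps, and all were highest in quadriceps 3 and lowest in quadriceps 2. Mup19 read 4.87, 1.61 and 7.77 in quadriceps, against -4.80, -6.69 and -4.51 in myoblasts. Mup genes are near copies of each other, so their probes may read shared transcripts.

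Scaffold genes of the Z disc and M band were higher almost without exception, 32 of 36 with none lower (median 4.03). Myoz3, a Z disc calcineurin binder, was at least 1162-fold higher, Xirp2, an actin binder of costamere and Z disc, 852-fold and Ankrd23, a titin-binding partner of diabetes-linked signalling, 603-fold. Ttn, the giant spring of the sarcomere, read 8.62, 8.80 and 8.95 in quadriceps against 4.39, 4.19 and 4.09 in myoblasts, with no overlap. Neb, which sets the length of thin filaments, was 16.8-fold higher and Des, the muscle intermediate filament, 4.30-fold, at 6.84, 7.26 and 7.42 against 4.53, 5.55 and 5.12. The call of Des was lost without the 3 mismatched samples (log2 difference 1.5, adjusted p = 0.13). Members that did not pass were Synpo2l (0.81), Pdlim7 (-0.55), Obsl1 (-0.77) and Myom3 (-1.04).

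Excitation-contraction coupling genes, which turn the nerve's signal into calcium release, were higher in 24 of 27 cases with none lower (median 4.54). Kcna7, a voltage-gated potassium channel, read 6.39, 5.93 and 6.29 in quadriceps against -3.16, -2.09 and -2.28 in myoblasts (420-fold, adjusted p = 8.1e-09). Clcn1, the chloride channel that stabilises the fibre membrane, was at least 84.6-fold higher. Ryr1, the calcium release channel, was 35.1-fold higher, Cacna1s, its voltage sensor, 17.9-fold, and Jph1, which holds the 2 membranes together, 23.5-fold. Fkbp1a (0.94), Ryr3 (-0.29) and Sln (-0.63) did not pass. Sln, sarcolipin, an inhibitor of the calcium pump, read 3.51, 1.89 and -0.70 in quadriceps against -0.22, 2.87 and 3.93 in myoblasts, and the groups overlapped.

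A related list of ion transport, calcium buffer and carnosine genes gave 18 of 20 higher and 1 lower (median 5.53). Ampd1, the AMP deaminase of fast fibres, was 763-fold higher, Smtnl1, a regulator of myosin phosphatase, 662-fold, and Atp1b2, a sodium pump subunit, 267-fold. Car3, the carbonic anhydrase of slow muscle and fat, read 7.91, 8.09 and 9.49 in quadriceps against 2.11, 3.02 and 3.93 in myoblasts (44.4-fold). Carns1, which makes carnosine, was 4.37-fold higher. Car8 was the member called lower (5.91-fold), and it lost that call without quadriceps 3 (adjusted p = 0.11), myoblasts 1 (0.072) or myoblasts 3 (0.074), with quantile normalization (0.064) and without the 3 mismatched samples (0.49).

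At the neuromuscular junction 2 of 17 genes were higher and 11 lower (median -2.10). Subunits of the acetylcholine receptor went opposite ways. Chrng, the fetal gamma subunit of the acetylcholine receptor, was above background in no quadriceps sample and read 1.31, 2.25 and 1.85 in myoblasts, at least 37.4-fold lower. Chrne, the adult epsilon subunit, read -0.90, -0.83 and -0.13 in quadriceps and was above background in no myoblast sample, at least 18.8-fold higher. Chrna1 and Chrnd, the alpha and delta subunits present in both receptor forms, were 51.4- and 31.3-fold lower, and Chrnb1 4.30-fold lower. Colq, the collagen tail of acetylcholinesterase, was 17-fold higher. Musk and Lrp4, the kinase and co-receptor that gather receptors under the nerve, were 5.74- and 6.09-fold lower, whereas Rapsn (-0.21) and Dok7 (-0.12), which act beside them, did not pass the test. Ncam1, an adhesion protein of unfused myoblasts and denervated fibres, was 97.3-fold lower.

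Fusion genes were lower in 11 of 19 tested cases and higher in 3 (median -1.29). Mymx, the small fusogen myomixer (also called myomerger), read -3.23, -5.75 and -5.02 in quadriceps, above background in 1 of 3, against 5.36, 6.05 and 6.09 in myoblasts, a 1449-fold difference (-10.50 ± 0.58, adjusted p = 3.5e-10). Its partner Mymk, myomaker, read -1.70, -2.89 and -3.22 in quadriceps, above background in 2 of 3, against 3.96, 5.30 and 4.77 (156-fold lower). Cdh2 and Cdh15, the cadherins through which myoblasts adhere, were 72.4- and 6.16-fold lower. Stab2, a scavenger receptor given a part in myoblast fusion and best known from sinusoidal endothelium, was 156-fold higher, Dysf, which reseals the fibre membrane, 5.24-fold and Tmem182, a brake on fusion in the mouse, 6.56-fold. The call of Tmem182 was lost without the 3 mismatched samples (2.06, adjusted p = 0.19) and against quadriceps 1 alone (0.081).

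The dystrophin complex anchors the fibre to its matrix. Of 22 genes 13 were higher and 1 lower (median 1.39), with 6 higher when the 3 mismatched samples were left out and 7 against quadriceps 1 alone. Dmd, dystrophin itself, read 2.45, 2.90 and 2.86 in quadriceps against -2.66, -1.08 and -1.20 in myoblasts (20.9-fold). Sgcd, delta sarcoglycan, was 90.4-fold higher and Nos1, the nitric oxide synthase bound to the complex, at least 26.0-fold. Sgca was 3.45-fold higher, while Sgcb (0.48) and Sgce (-0.52) did not pass. Sntb1, a syntrophin, was 3.32-fold lower. It did not pass after normexp background correction (-0.70, adjusted p = 0.081), nor without the 3 mismatched samples (0.058) or against quadriceps 1 alone (0.25). The calls of Dmd and Sgca were lost without the 3 mismatched samples (adjusted p = 0.18 and 0.17) and against quadriceps 1 alone (0.11 and 0.094).

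Of 17 myogenic regulators tested, 5 were higher and 5 lower. The median was 0.11, and quantile normalization turned its sign (-0.04). Myod1, which commits cells to muscle, read 1.42, 1.56 and 2.27 in quadriceps, against 5.77, 5.78 and 5.64 in myoblasts (15.8-fold lower, adjusted p = 9.3e-08). Myog, which drives differentiation, read 0.33, -0.94 and 1.51 in quadriceps against 6.25, 6.77 and 6.57 in myoblasts (75.2-fold lower). Myog was thus bright in the passage 0 cultures, as were Myh3, Mymx and Mymk above. Whether part of those cells had begun to differentiate was not tested. Myf6, the family member of mature fibres, read 4.13, 4.56 and 4.76 in quadriceps, against -2.85, -2.19 and -1.79 in myoblasts (108-fold higher). Myf5, the earliest family member, was above background in none of the 6 samples. Mef2c, a partner of the family, was 8.13-fold higher and Mef2d 4.17-fold, while Six4 (-0.57) and Pax3 (0.11) did not pass. Tead4, a factor of the Hippo pathway, was 6.10-fold lower. Without the 3 mismatched samples 3 of the 17 were higher, and Vgll2 (4.65-fold higher in all samples) was among those that lost the call.

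Satellite cells are the stem cells of muscle and the source of primary myoblasts. Their markers were lower in 12 of 22 cases and higher in 1, Des (median -1.46). Pax7, the factor that defines them, read -1.42, -1.89 and -1.90 in quadriceps, above background in all, against 2.98, 2.99 and 2.63 in myoblasts (24.3-fold lower). Sdc3, a proteoglycan of satellite cells, was 20.2-fold lower, Fgfr4 12.7-fold, Vcam1 11.6-fold and Cxcr4 at least 12.6-fold. Cd34 (1.47), Spry1 (-0.30) and Notch3 (-0.44) did not pass, and Cd34 is also a marker of vessels and connective tissue cells.

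**Figure D3:**
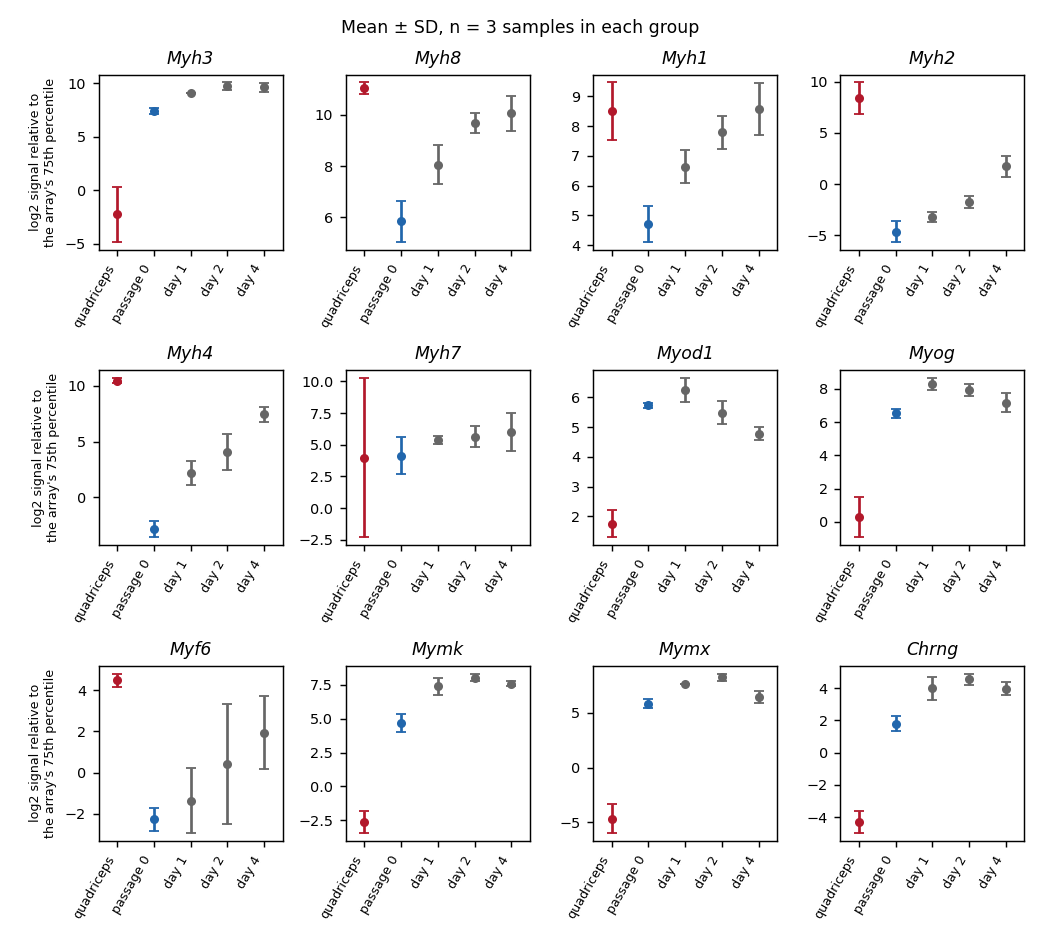
Mean log2 signal relative to the 75th percentile of the array, with SD over 3 samples, for 12 muscle genes in quadriceps, passage 0 myoblasts and myotubes after 1, 2 and 4 days in differentiation medium. Quadriceps stands above the cultures for Myh2, Myh4 and Myf6 and below all of them for Myh3, Mymk, Mymx, Chrng, Myod1 and Myog.

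Myotubes after 4 days in differentiation medium are the cultured cells nearest to fibres, and quadriceps was set against them in the same fit, so both comparisons share the quadriceps samples. The array of day 4 myotubes 1 was dim, with 39.1% of spots above background. Its 75th percentile signal was 208, against 440 and 580 in day 4 myotubes 2 and 3. Of 18567 genes tested, 15.5% were higher and 16.7% lower in quadriceps than in day 4 myotubes. Myh4 averaged 10.47 ± 0.23 in quadriceps and 7.46 ± 0.68 in day 4 myotubes (SD, n = 3 each), 8.03-fold higher (adjusted p = 0.0030). Myh2 averaged 8.41 ± 1.52 in quadriceps and 1.74 ± 1.02 in day 4 myotubes (102-fold higher). For Myh1, the myosin between these types, the means were 8.50 and 8.56, and for Acta1 11.04 and 10.10, and neither passed the test (adjusted p = 0.94 and 0.15). Relative to day 4 myotubes, Myh3 fell by 11.88, Mymx fell by 11.11, Mymk fell by 10.17 and Tnnt2 fell by 9.85 on the log2 scale in quadriceps. Cdkn1a, the p21 inhibitor that holds myotubes out of the cycle, averaged 1.23 ± 0.98 in quadriceps and 8.04 ± 0.36 in day 4 myotubes (112-fold lower, adjusted p = 8.8e-09).

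Glycolysis and glycogen genes fuel fast contraction. Of 39, 28 were higher and 6 lower (median 3.08). Ppp1r3c, which targets a phosphatase to glycogen, was 1713-fold higher and Gpd1, of the glycerol phosphate shuttle, 656-fold. Fbp2, the fructose bisphosphatase of muscle, was at least 144-fold higher. Slc2a4, the insulin-regulated glucose transporter GLUT4, read 8.12, 8.05 and 8.29 in quadriceps, against -0.70, 1.25 and 1.28 in myoblasts (187-fold). Pygm, muscle glycogen phosphorylase, was higher by 6.66 on the log2 scale and Pfkm, muscle phosphofructokinase, 70.3-fold. Slc2a1, the basal glucose transporter GLUT1, was 3.22-fold lower, as were other forms of muscle enzymes: Pgam1 (12-fold), Eno1 (6.28-fold), Pfkl (5.18-fold) and Pygb (3.57-fold).

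Enzymes of the citric acid cycle were higher in 23 of 25 cases with none lower (median 1.91). Mpc1 and Mpc2, which carry pyruvate into mitochondria, were 14- and 10.5-fold higher. Cs, citrate synthase, read 8.80, 8.63 and 8.70 in quadriceps against 6.85, 6.97 and 6.59 in myoblasts (3.75-fold). The respiratory chain gave 47 of 49 higher and 1 lower (median 1.68), with Uqcrb, of complex III, at 4.86-fold. Without the 3 mismatched samples 23 were called higher. Cox8b, the muscle form of a cytochrome oxidase subunit, stood above the rest at 69.0-fold. Atp5c1, an ATP synthase subunit, was the member called lower (2.30-fold, adjusted p = 0.040), but the mean of its probes gave 0.30 (adjusted p = 0.79), and 5 of 6 single-sample omissions also ended the call, with adjusted p up to 0.18 (without quadriceps 3).

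Fatty acid genes were higher in 30 of 35 cases and lower in 3 (median 2.59). Cpt1b, the muscle form of the enzyme that admits fatty acids to mitochondria, read 5.02, 4.72 and 5.06 in quadriceps, against -2.57, -1.92 and -2.27 in myoblasts (146-fold higher). Cpt1a, the form of liver and most other tissues, read -0.13, -0.54 and -0.34 in quadriceps against 3.19, 3.61 and 3.48 (13.6-fold lower). Acacb, whose product restrains that step, was 317-fold higher, and Plin4, a lipid droplet coat, 307-fold. Plin2, the droplet coat found in most cells, was 4.94-fold lower.

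Several enzymes and structural proteins exist as a muscle form and a general form. Of 33 such genes 16 were higher and 13 lower (median 0.56). Eef1a1, the general elongation factor, read 4.85, 4.64 and 4.44 in quadriceps against 8.30, 7.67 and 8.00 in myoblasts (10.2-fold lower), opposite to Eef1a2. Rpl3, the general form of ribosomal protein L3, named here after its values were seen, read 5.16, 5.15 and 5.59 in quadriceps against 8.81, 8.74 and 8.45 (10.3-fold lower), opposite to Rpl3l, and another Rpl3 probe gave -3.77. Ckb was 7.31-fold lower beside Ckm, Slc25a5 8.29-fold lower beside Slc25a4 (5.73-fold higher), Cox6a1 4.16-fold lower beside Cox6a2 (81.1-fold higher) and Ampd2 6.25-fold lower beside Ampd1. Cox7a2 (0.52), Ckmt1 (0.56) and Actc1 did not pass.

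Nuclear receptors and coactivators, which set the oxidative and daily programmes of muscle, were higher in 15 of 23 cases and lower in 3 (median 2.67). Perm1, a muscle coregulator of mitochondrial genes, was 1735-fold higher. Ppargc1a, the coactivator PGC-1 alpha, read 3.55, 2.99 and 2.65 in quadriceps, against -0.65, -0.60 and -1.28 in myoblasts (15-fold). Ppara was 31.6-fold higher and Esrra 4.01-fold, whereas Ppargc1b (0.42), Tfam (0.22) and Pparg (-0.27) did not pass. Nr4a2 was 20.1-fold lower, while its relative Nr4a1, an immediate early receptor, was 12.7-fold higher. Of 16 clock genes 9 were higher and none lower (median 1.70), among them Hlf (24.8-fold) and Dbp (7.38-fold), while Per1 (0.53), Per2 (-0.57) and Clock (-0.43) did not pass. The labels give no time of day.

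Atrophy and proteolysis genes were higher in 15 of 25 cases and lower in 4 (median 1.74), with 8 higher when the 3 mismatched samples were left out. Asb14 was at least 692-fold higher and Fbxo40, a muscle ubiquitin ligase for insulin receptor substrate, 251-fold. Trim63 and Fbxo32, the ligases MuRF1 and atrogin-1, were 29.0- and 6.29-fold higher, and Fbxo32 read 2.90, 5.43 and 5.11 in quadriceps against 1.77, 2.23 and 1.49. The call of Fbxo32 was lost without the 3 mismatched samples (adjusted p = 0.076) and against quadriceps 1 alone (0.11). Foxo3 was at least 4.04-fold lower.

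Among secreted growth regulators 9 of 28 were higher and 10 lower (median -0.70). Ostn, musclin, was at least 28.6-fold higher and Mstn, myostatin, which limits muscle mass, 9.80-fold, at 1.46, 2.98 and 3.04 in quadriceps against -2.31, -0.52 and 0.44. The call of Mstn was lost without myoblasts 1 (adjusted p = 0.076), without the 3 mismatched samples (0.21) and against quadriceps 1 alone (0.26). Gdf15 was 117-fold lower, Igf2 66.1-fold, Inhba 37.3-fold and Fgf21 at least 21.3-fold. Over genes above background in both groups 5 were lower.

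**Figure D4:**
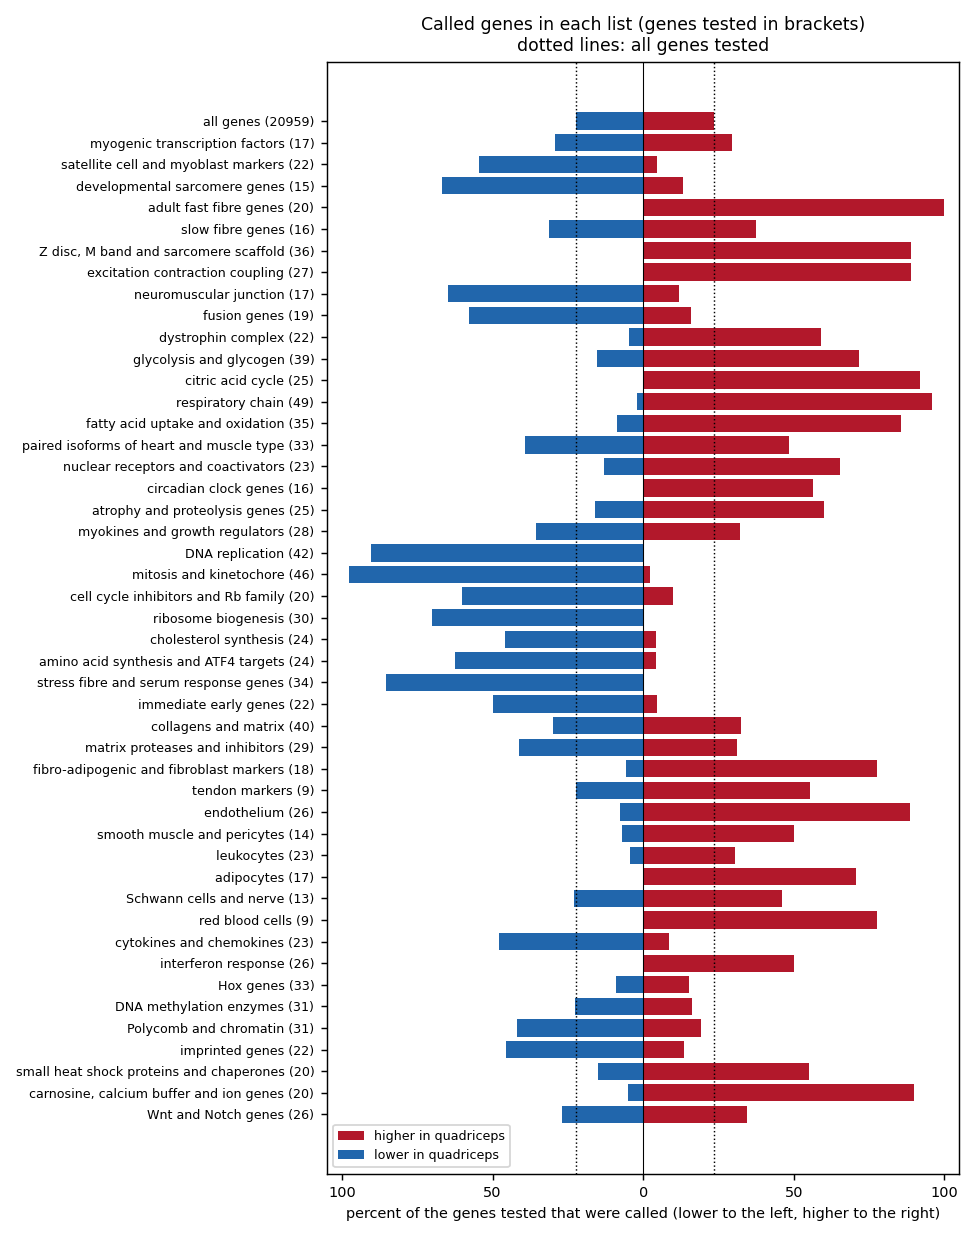
Percent of the tested genes of each list that were called higher in quadriceps (red, to the right) or lower (blue, to the left), with the number tested in brackets and dotted lines at 23.6% higher and 22.2% lower over all genes. Fast fibre genes reach 100% to the right, and mitosis genes reach nearly as far to the left.

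Cell cycle genes were lower in quadriceps with few exceptions. Of 42 DNA replication genes 38 were lower and none higher (median -3.88, or -3.61 with bounds). Rrm2, the ribonucleotide reductase subunit made in S phase, read -0.55, -2.32 and -2.08 in quadriceps, against 6.75, 6.27 and 6.24 in myoblasts (268-fold lower, adjusted p = 8.4e-09). Uhrf1, which brings DNA methyltransferase to the fork, was 164-fold lower, Cdt1, a licensing factor, 117-fold. Mcm5, of the replicative helicase, fell by 6.65 on the log2 scale. Rpa2 (-0.54), Pola2 (-0.65), Rfc4 (-0.92) and Gins4 (-0.93) were not called. Of 46 mitosis genes 45 were lower (median -6.24, or -5.29 with bounds). Mki67, the marker of cycling cells, read -1.36, -3.36 and -2.55 in quadriceps against 5.69, 5.55 and 5.20 in myoblasts (239-fold). Ccnb1, cyclin B1, was above background in no quadriceps sample and read 4.60, 4.54 and 4.45 in myoblasts, at least 271-fold lower. Over genes above background in both groups 16 of the mitosis genes were called lower.

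Individual members departed from that pattern. Pttg1, securin, was the mitosis gene called higher (2.39-fold, adjusted p = 0.042), its other probe gave 0.60, and the call was lost under 10 of the alternatives, among them leaving out quadriceps 1 (adjusted p = 0.17), quadriceps 3 (0.066), myoblasts 1 (0.069) or myoblasts 3 (0.16). Cdk1, the mitotic kinase, read 2.42, -2.39 and 2.02 in myoblasts 1, 2 and 3 and was above background in no quadriceps sample, at least 18.8-fold lower, a call lost without the 3 mismatched samples (adjusted p = 0.34). Other genes with the largest folds lower were Birc5 (survivin, 254-fold), Timp1 (a protease inhibitor, 248-fold), H2ac4 (a replication-dependent histone, 239-fold) and Megf10 (a regulator of satellite cell growth, 182-fold). Camk1g was 110-fold lower and Ube2c 108-fold. Dynap, Steap1, Aqp5, Mcpt8 and Mthfd1l were above background in no quadriceps sample and at least 225-, 173-, 152-, 141- and 135-fold lower.

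Cell cycle inhibitors and their partners were also mostly lower. Of 20 cell cycle regulators in that list 12 were lower and 2 higher (median -1.44, or -1.24 with bounds). Cdkn2a, the p16 and p19ARF locus, read -3.61, -2.48 and -3.33 in quadriceps, above background in 2 of 3, against 5.37, 4.87 and 5.09 in myoblasts (304-fold lower). Cdkn1a was 23.9-fold lower and Cdkn2b, p15, 12-fold, while Cdkn1b, p27, did not pass (0.65, adjusted p = 0.052). Ccnd1, Ccnd3 and Cdk4, which drive entry into the cycle, were 30.4-, 20.8- and 7.46-fold lower. Rbl2, the retinoblastoma relative of resting cells, was 3.46-fold higher and Rbl1, of cycling cells, 9.77-fold lower.

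Growth and biosynthesis genes were lower as well. In ribosome biogenesis 21 of 30 were lower and none higher (median -1.34), with Nop58 8.13-fold, Npm1 6.44-fold and Myc 5.60-fold lower. In amino acid synthesis and the ATF4 response 15 of 24 were lower and 1 higher (median -1.58, or -1.39 with bounds). Psat1, Phgdh and Asns, which make serine and asparagine, were 55.9-, 55.8- and 44.0-fold lower, with Phgdh at -0.76, -0.73 and 0.20 in quadriceps against 5.12, 5.69 and 5.32 in myoblasts. Atf4 itself did not pass (-0.22). In cholesterol synthesis 11 of 24 were lower and 1 higher (median -1.09), with 6 lower when the 3 mismatched samples were left out. The median of the cholesterol list with bounds was -0.91. Sqle was 20.0-fold lower, whereas Hmgcs1 (0.25) and Fdps (-0.20) did not pass.

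Stress fibre and serum response genes, which build the cytoskeleton of spread cells, were lower in 29 of 34 cases with none higher (median -3.25). Tmsb10, an actin-binding thymosin, read 3.46, 3.02 and 3.32 in quadriceps against 8.14, 8.50 and 8.07 in myoblasts (31.4-fold lower). Anxa1 was 25.3-fold lower, Vim, the filament of mesenchymal cells, 17.3-fold and Acta2, smooth muscle actin, 19.6-fold. Srf (0.01) and Tagln (-1.0) did not pass. Of 22 immediate early genes 11 were lower and 1 higher (median -1.43), with 6 lower against quadriceps 1 alone. Fosl1 was at least 51.2-fold lower and Egr1 22.9-fold, while Jun (-0.22), Dusp1 (0.41) and Fos (-1.67, adjusted p = 0.055) did not pass.

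Matrix genes divided. Of 40 collagen and matrix genes 13 were higher and 12 lower (median -0.12, turning to 0.40 against quadriceps 1 alone), with 7 higher when the 3 mismatched samples were left out. Fmod, a small proteoglycan of tendon, was 154-fold higher and Dcn, decorin, 25.3-fold, at 8.20, 8.14 and 7.62 in quadriceps against 0.99, 4.74 and 4.25 in myoblasts. Col1a1 read 6.63, 4.26 and 3.81 in quadriceps against 0.19, 2.37 and 2.00 (10.4-fold higher), a call lost without quadriceps 1 (adjusted p = 0.068), myoblasts 1 (0.062) or the 3 mismatched samples (0.16), whereas Col3a1 (0.55) and Col4a1 (-0.32) did not pass. Col18a1 was 41.7-fold lower, Tnc, tenascin C, 19.4-fold and Fn1, fibronectin, 4.69-fold, and the call of Fn1 was lost without the 3 mismatched samples (adjusted p = 0.10). Among proteases and their inhibitors 9 of 29 were higher and 12 lower (median -0.99, -0.27 with bounds, or 0.00 with normexp background correction). Timp1 read 1.60, -1.87 and -1.84 in quadriceps against 6.70, 7.45 and 7.61 in myoblasts, while Timp4 was higher by 6.72 on the log2 scale. Plaur, the receptor of the plasminogen activator urokinase, was 103-fold lower.

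Markers of endothelium and of fibro-adipogenic cells and fibroblasts were mostly higher in quadriceps. Of 26 endothelial markers 23 were higher and 2 lower (median 4.85, or 4.36 with bounds), and 12 over genes above background in both groups. The mean level over the list was 2.20, 1.41 and 1.30 in quadriceps 1, 2 and 3, against -3.38, -2.63 and -2.82 in myoblasts. Flt1, a receptor for VEGF, was 226-fold higher and Cdh5, the endothelial cadherin, 53.5-fold. Fibro-adipogenic and fibroblast markers were higher in 14 of 18 cases and lower in 1 (median 4.13, or 3.67 with bounds), and 9 were higher without the 3 mismatched samples. Their mean level was 3.18, 3.14 and 3.19 in quadriceps against -1.24, 0.15 and 0.23 in myoblasts. Pi16 was 154-fold higher, Dpt at least 68.6-fold and Pdgfra, the receptor that marks these cells, 5.09-fold, while S100a4 was 26.8-fold lower. Without the 3 mismatched samples the calls of Pdgfra (adjusted p = 0.14) and S100a4 (0.053) were lost.

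Markers of fat, tendon and blood were also mostly higher in quadriceps. Adipocyte markers were higher in 12 of 17 cases (median 4.25, or 3.63 with bounds) and in 4 over genes above background in both groups. Cfd, adipsin, read 6.26, 6.02 and 9.20 in quadriceps 1, 2 and 3 and was above background in 2 myoblast samples (3541-fold higher), and Adipoq, adiponectin, read 2.00, 2.09 and 4.81 (at least 225-fold). Both were highest in quadriceps 3. Tendon markers were higher in 5 of 9 cases and lower in 2 (median 4.86, or 4.34 with bounds), with 2 higher over genes above background in both groups. Thbs4, a thrombospondin of tendon, read 5.64, 4.59 and 3.09 in quadriceps, highest in quadriceps 1 and lowest in quadriceps 3. Red cell genes were higher in 7 of 9 cases (median 9.20, or 7.30 with bounds), 2 of them above background in both groups. Hba-a1 read 6.95, 7.16 and 7.32 in quadriceps, against -5.08, -4.26 and -3.21 in myoblasts.

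Other lists gave smaller shares, and that of leukocyte markers (30.4% higher) was near the 23.6% of all genes tested. Smooth muscle and pericyte markers were higher in 7 of 14 cases and lower in 1 (median 1.68), with 4 higher without the 3 mismatched samples and 4 against quadriceps 1 alone. Myh11, smooth muscle myosin, was at least 42.7-fold higher. Schwann cell markers gave 6 of 13 higher and 3 lower (median 1.08), with S100b 18.3-fold higher and Ngfr, a neurotrophin receptor, lower. Leukocyte markers gave 7 of 23 higher and 1 lower (median 0.91), with 3 higher without the 3 mismatched samples. H2-Ab1 was 40.5-fold higher, a call lost without the 3 mismatched samples (adjusted p = 0.062), and Cd74 34.1-fold. These quantities stand beside every muscle gene above, and their part in the differences was not tested.

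Markers of other cells varied among the myoblast samples. Lyz2, a lysozyme of macrophages, read -0.61, -1.07 and -0.55 in quadriceps, against 2.73, 1.72 and -1.13 in myoblasts 1, 2 and 3. Tyrobp, a macrophage signalling adaptor, read 1.02, 0.47 and 1.03 in quadriceps, against 3.22, 1.95 and -0.91 in myoblasts. Both were highest in myoblasts 1 and lowest in myoblasts 3. The mean leukocyte level was -0.45, -0.77 and -0.61 in quadriceps, against -0.89, -1.60 and -2.95 in myoblasts. Lum, a matrix proteoglycan of fibroblasts, read 3.12, 2.96 and 2.73 in quadriceps, against -4.22, -0.59 and -0.09 in myoblasts 1, 2 and 3, and was thus lowest in myoblasts 1.

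**Figure D5:**
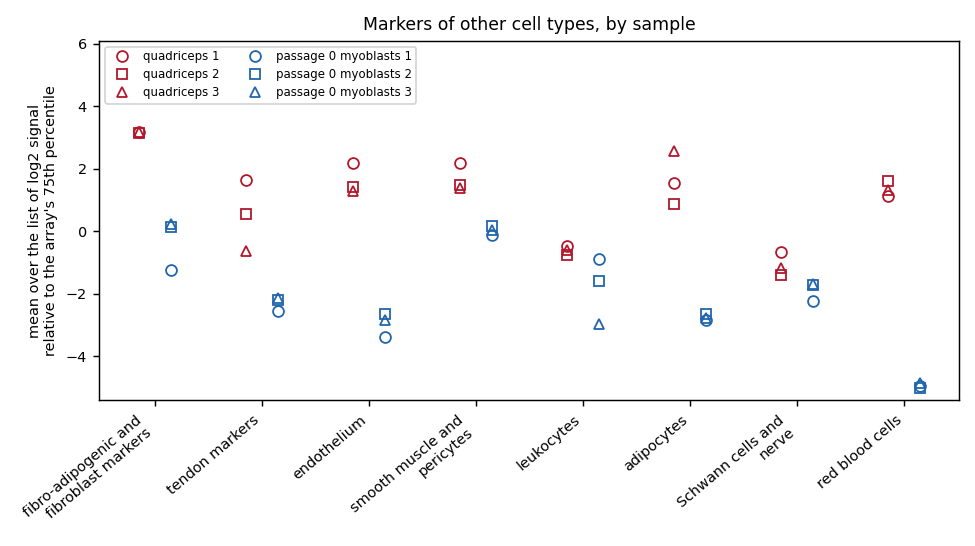
Mean log2 signal over each list of cell type markers, in each quadriceps sample (red, left) and each passage 0 myoblast sample (blue, right). Quadriceps points lie above the myoblast points for endothelium (1.30 to 2.20 against -3.38 to -2.63) and red cells (1.15 to 1.63 against -5.00 to -4.84).

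Cytokine genes were lower in 11 of 23 cases and higher in 2 (median -0.57, turning to 0.47 over genes above background in both groups). Il11, a fibrosis-linked cytokine, was 310-fold lower, at -3.33, -3.81 and -5.15 in quadriceps, above background in 1 of 3, against 4.10, 4.31 and 4.12. Ccl2, a monocyte attractant, read 0.02, -2.55 and -2.61 in quadriceps against 1.80, 5.18 and 5.49 in myoblasts (58.6-fold lower), and Cxcl14 was 26.8-fold higher, a call lost without the 3 mismatched samples (adjusted p = 0.063). The count lower was 4 against quadriceps 1 alone and 3 over genes above background in both groups. Interferon response genes were higher in 13 of 26 cases with none lower (median 2.27), but in 5 without the 3 mismatched samples and in 7 against quadriceps 1 alone. Oas2 was at least 36.6-fold higher and Ifit3 38.0-fold, whereas Isg15 (2.18, adjusted p = 0.16) and B2m (0.10) did not pass.

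Of 33 Hox and limb genes 5 were higher and 3 lower (median 0.30), and the count higher moved between 2 and 10 under the alternatives. Hoxa11, which patterns the middle limb, read -5.90, -2.47 and -4.10 in quadriceps, above background in 1 of 3, against 2.54, 2.43 and 2.35 in myoblasts (96.7-fold lower). Hoxa9 (-0.05) and Hoxa10 (-0.62) did not pass. Meox2, a homeobox gene of limb muscle, was 24.9-fold higher. Among imprinted genes 10 of 22 were lower and 3 higher (median -1.38, or -1.17 with bounds), with 6 lower against quadriceps 1 alone and 6 over genes above background in both groups. Mest read -1.0, -2.31 and -2.87 in quadriceps, above background in 2 of 3, against 6.61, 6.56 and 6.5 in myoblasts (393-fold lower). Plagl1, a regulator of other imprinted genes, was 97.0-fold lower and Peg3 22.6-fold, while Slc38a4 was 52.2-fold higher and Snrpn 7.47-fold.

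The series concerns DNA methylation in myogenesis, and the enzymes that write and remove it were examined. Of 31 genes 5 were higher and 7 lower (median -0.34), shares close to or below those of all genes. Dnmt1, the maintenance methyltransferase, read -1.37, -1.54 and -1.46 in quadriceps, against 1.68, 1.76 and 1.28 in myoblasts (8.16-fold lower). Dnmt3a, a de novo methyltransferase, read 3.62, 3.46 and 3.35 in quadriceps against -0.41, -0.55 and -0.17 (14.5-fold higher), while Dnmt3b did not pass (-0.34). Tet1 was 9.20-fold higher by its brightest probe, but other probes gave -0.38 and -0.22 and the mean of its probes gave 0.87, under 2-fold. Tet2 did not pass (1.09) and Tet3 was 2.65-fold higher, a call lost as the mean of its probes (0.65, adjusted p = 0.10), with the authors' values (0.93, under 2-fold) and without the 3 mismatched samples (adjusted p = 0.20). Apobec2, a muscle deaminase relative, was 12.4-fold higher. Among Polycomb and chromatin genes 6 of 31 were higher and 13 lower (median -0.71, or -0.57 with bounds). Ezh2, the methyltransferase of dividing cells, was 14.8-fold lower, and Ezh1, its relative in resting cells, read 4.27, 4.59 and 4.78 in quadriceps against 2.39, 2.62 and 2.83 (3.82-fold higher). Hmga2, a chromatin protein of growing tissue, was 226-fold lower.

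Chaperone and signalling lists closed the comparison. Of 20 heat shock genes 11 were higher and 3 lower (median 1.12), with 7 higher without the 3 mismatched samples. Hspb6 and Hspb7, small heat shock proteins of muscle, were 57.6- and 22.6-fold higher, and Hspa1l 59.3-fold. Hsp90aa1, Hsp90b1 and Hspa5 were 5.08-, 3.59- and 2.41-fold lower, with the call of Hsp90b1 lost without the 3 mismatched samples (adjusted p = 0.052), while Hsp90ab1 (-0.03) and Hspa8 (0.76) did not pass. Of 26 Wnt and Notch genes 9 were higher and 7 lower, with 5 higher without the 3 mismatched samples. The median was 0.15, and quantile normalization turned its sign (-0.11). Sfrp5, a secreted Wnt inhibitor, was 65.3-fold higher, whereas Hes6, a promoter of myogenic differentiation, read 1.67, 2.05 and 1.41 in quadriceps against 7.36, 7.87 and 7.35 in myoblasts (56.3-fold lower). Lef1, a Wnt effector, was 35.3-fold lower.

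Some of the folds above rest on a group in which only part of the samples was above background. Among genes higher in quadriceps, Xirp2, Sgcd, Smtnl1, Sfrp5, Hspa1l, S100b, Ifit3, Cdh5 and Hba-a1 were above background in 2 of 3 myoblast samples, and Perm1, Ppp1r3c, Stab2, Fmod and Mup19 in 1 of 3. Among genes lower in quadriceps, Plaur, Tnc, Hmga2, Car8, Tnnc1, Sntb1 and Mcm5 were above background in 2 of 3 quadriceps samples, and Uhrf1, Igf2, Lef1 and Gdf15 in 1 of 3.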

How the data were processed

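The data are 1-colour (Cy3) arrays of total RNA with 55681 probes. Per the file headers, the authors extracted spot intensity with Feature Extraction 10.7.3.1, and the deposited intensity was background-corrected but not normalized between arrays. The authors' deposited table of log2 values was used as an alternative. Its direction and log2 scale matched the scanner signals, with correlations of 0.954 to 0.991 per array. Its median was 6.76 to 6.8 on every array used, and how that centring was done stays unknown. Probe coordinates are those of mm9, per the file headers. Here, log2 intensity minus the 75th percentile of each array was averaged over spots of a probe, without outlier spots and controls, and fitted with limma 3.58.1 (R 4.3.3) on 7 group means over 21 samples, with 14 residual degrees of freedom. A probe was tested if all samples of either group in the comparison had it above background, and p-values were adjusted (Benjamini-Hochberg) over all probes tested. Gene names came from the files, with 26685 probes updated through an accession to RefSeq, 2538 through a symbol and 474 through a synonym. The members and gene lists were chosen with earlier results of these data known. Genes named are the 12 largest folds each way measured on all 6 samples, the 6 largest bounds each way, the 3 largest changes each way in a list, other list members where a list is described, and a set of muscle genes; genes outside it are said to be chosen after their values were seen. The fit was tested on simulated data. Replicate numbers did not pair the samples: same-numbered quadriceps and myoblast samples had deviations that correlated at -0.01, -0.28 and -0.27. The number of arrays limits the precision. A few genes that this rule names are not reported here.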

Additional observations from a re-analysis of the deposited data

How the results depend on the processing

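Of 225 named genes called, 190 kept their call under all of the 20 alternatives that tested them and 1 reversed: Atp5c1 gave 0.296 as the mean of its probes. Counts of named genes in this section cover only genes picked by the size of their change and the set of muscle genes. Other list members described above, such as Tnnt1, Dmd, Cdk1 and Col1a1, are not counted, though their calls were lost under some alternatives. Over genes above background in both groups 3075 genes and 3849 probes were lower, and the tendon marker median turned to -0.562; this filter removes genes that fell below background, and adds none. Without the 3 samples whose sex genes go against their label 3063 genes and 4148 probes were higher, with fewer samples in the fit, and 25 named genes lost their call. Against quadriceps 1 alone, a lone sample assumed to vary like the other groups, 24 did, and with normexp background correction 7. Leaving out 1 sample at a time gave 4367 to 4969 genes higher and 4250 to 4533 lower, and 5859 to 6718 probes higher and 5849 to 6219 lower. The array of proliferating myoblasts 1 was dim, with a 75th percentile signal of 88 and 41.2% of spots above background. Its group had a median SD of 0.68, against 0.35 in quadriceps and 0.28 in passage 0 myoblasts. Without that array, an unplanned fit gave 5331 genes higher and 4798 lower, and 7172 and 6651 probes, and ended no call of a named gene. The fit with a replicate block gave 5077 genes higher and 4747 lower, and 6818 and 6564 probes, and with the slide as a block 5208 and 4840 genes; the replicate block ended no call of a named gene. The median of all genes was 0.16 as reported, 0.31 with normexp and 0.00 with quantile normalization or the authors' values, so changes under 0.3 depend on the scaling. Signal over background limits the folds: 1329 called genes had no sample of 1 group above background. Strain is not balanced between the groups, and its part was not tested.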
